A study of Mus musculus with 12 samples.

Results

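A set of 9 genes of duct cells and simple epithelia was followed in sorted islet cells of prediabetic mice. They are the keratin genes Krt8, Krt18, Krt7 and Krt19, the surface protein genes Epcam and Muc1, the duct regulator Sox9, the chloride channel gene Cftr and the secreted factor gene Spp1. They were taken by symbol, as 9 of 52962 gene identifiers in the count table. All 9 were among the 15598 genes that passed the filter on low counts, which asked for a CPM (counts relative to the scaled library size) over 1 in 3 or more samples. Cftr passed only through the non-β-cells at 8 weeks, where it was highest, so it had to differ there and is left out of the counts and medians below.

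Islets of female NOD mice, which develop autoimmune diabetes spontaneously, were the source of the RNA. Islet cells were sorted into β-cells and non-β-cells at 4 and 8 weeks of age, giving 4 groups of 3 replicates. All groups were NOD and untreated as far as the labels state, so no diabetes-resistant strain serves as a control here. Per the study's methods, islets were cultured overnight, dispersed with trypsin and sorted by size, natural fluorescence and absence of CD45, the surface protein of leukocytes. The study describes each replicate as a pool of mice, although its labels are silent on this. The p-values below set differences between groups against the spread between these samples. A sorted fraction is a mixture, so fewer cells of a type and less RNA per cell cannot be told apart.

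Keratins 8 and 18 pair to form the intermediate filaments of simple epithelia, including the endocrine cells of the islet. Keratins 7 and 19 are added to that pair in duct epithelia, and keratin 19 is widely used to mark pancreatic ducts. EpCAM is an adhesion protein of most epithelia, and mucin 1 is a membrane-bound mucin of the luminal face of ducts. SOX9 is a transcription factor of pancreatic progenitors that adult ducts retain. CFTR carries chloride for the bicarbonate-rich secretion of duct cells. Osteopontin, the product of Spp1, is a secreted matrix protein made by duct cells, macrophages and injured tissues.

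Total estimated counts ranged from 13755106 to 27040652 a sample. The sort separated the hormones, since glucagon RNA in β-cells was 6.36% ± 1.75 of the non-β-cell mean at 4 weeks and 1.62% ± 0.428 at 8 weeks (SD, n = 3). On the third principal component, replicates 1, 2 and 3 at 4 weeks scored 6.72, 5.87 and 62.9 in β-cells and -17.5, -56.4 and 32.7 in non-β-cells. Replicate 3 thus lay apart in β-cells, while in non-β-cells replicates 2 and 3 both lay apart, on opposite sides. Within their own groups the 4-week samples numbered 3 had the highest level of every gene of the 9 but Cftr. Results that depend on either of them are given with and without it. Ptprc, the gene of CD45, averaged 0 to 0.454 CPM in the 4 groups.

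Start-site sequences were available for 7 of the 9 genes, from RefSeq on build GRCm38.p6. No window was found for Krt19 or Sox9. Each window holds 300 bases, 250 before the start and 50 from it. Shown are Krt8 and Krt18, whose products pair and whose genes face each other across 23697 bases of chromosome 15, and Muc1 and Spp1, which rose in both cell fractions. Capitals mark matches on either strand to NF-κB (GGANNNNCC), AP-1 (TGANTCA), STAT (TTCNNNGAA), SOX (ACAATG or ACAAAG) and E-box (CANNTG) letters, all written 5′ to 3′.
Krt8, chr15:102004293-102004592, minus strand: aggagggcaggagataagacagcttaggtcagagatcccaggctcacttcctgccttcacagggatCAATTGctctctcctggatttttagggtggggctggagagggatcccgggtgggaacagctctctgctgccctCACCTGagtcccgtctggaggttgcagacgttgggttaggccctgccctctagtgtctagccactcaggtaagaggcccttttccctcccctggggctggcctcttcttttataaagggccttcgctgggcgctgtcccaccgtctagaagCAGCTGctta
Krt18, chr15:102027966-102028265, plus strand: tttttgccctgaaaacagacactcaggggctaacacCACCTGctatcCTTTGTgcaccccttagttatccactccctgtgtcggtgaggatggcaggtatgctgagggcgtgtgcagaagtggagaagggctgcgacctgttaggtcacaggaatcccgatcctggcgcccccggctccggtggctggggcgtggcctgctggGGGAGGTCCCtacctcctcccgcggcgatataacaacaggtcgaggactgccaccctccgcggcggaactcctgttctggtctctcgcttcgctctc
Spp1, chr5:104434861-104435160, plus strand: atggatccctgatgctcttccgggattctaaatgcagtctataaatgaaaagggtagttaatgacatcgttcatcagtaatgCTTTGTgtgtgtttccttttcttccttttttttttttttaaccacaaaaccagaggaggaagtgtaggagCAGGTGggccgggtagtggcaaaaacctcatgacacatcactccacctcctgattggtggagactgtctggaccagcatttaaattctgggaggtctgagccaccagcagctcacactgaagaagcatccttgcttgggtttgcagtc
Muc1, chr3:89228806-89229105, plus strand: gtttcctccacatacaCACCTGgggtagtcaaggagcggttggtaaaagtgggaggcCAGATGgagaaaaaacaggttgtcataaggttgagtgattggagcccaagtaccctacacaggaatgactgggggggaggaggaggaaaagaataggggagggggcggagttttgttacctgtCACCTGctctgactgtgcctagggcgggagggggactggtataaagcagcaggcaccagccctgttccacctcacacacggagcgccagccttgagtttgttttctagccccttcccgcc
The Krt8 window held 3 E-box matches and none of the other letters. The Krt18 window held overlapping NF-κB matches at -47 and -46, a SOX match at -203 and an E-box at -214, counted from the start site. Krt8 and Krt18 therefore shared only the E-box letters, which 72.3% of the 32851 windows in the RefSeq table hold. The Spp1 window, at the first of its 2 RefSeq starts, held a SOX match at -168 and an E-box at -98. SOX letters occur in 28.6% of all windows and NF-κB letters in 48.4%. Muc1 held 3 E-box matches alone. AP-1 letters (7.81% of windows) and STAT letters (8.3%) were in none of the 7 genes' windows. A match is a stretch of letters and not a measured binding site.

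Between 4 and 8 weeks most of these genes rose in non-β-cells and fewer did in β-cells. In non-β-cells 6 of the other 8 genes rose (Krt8, Krt18, Krt19, Muc1, Sox9 and Spp1) and none fell, against 11.6% of all tested genes that rose and 4.8% that fell. Among the 14358 genes that passed the filter without relying on a single group, 10.2% rose and 5.15% fell. In β-cells Spp1 and Muc1 rose while Krt8, Krt18 and Epcam fell, so 2 rose and 3 fell, against 8.59% and 9.35% of all tested genes. The median log2 change of the 8 genes was 1.32 in non-β-cells and -0.19 in β-cells, beside -0.01 and 0.01 over those 14358 genes. The age change itself differed between the fractions for 5 genes. It was lower in β-cells for Krt8, Krt18, Krt19 and Epcam (background 3.33% of tested genes) and higher in β-cells for Spp1 (background 1.8%). This difference, the interaction, subtracts the non-β-cell age change from the β-cell age change.

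**Figure D1:**
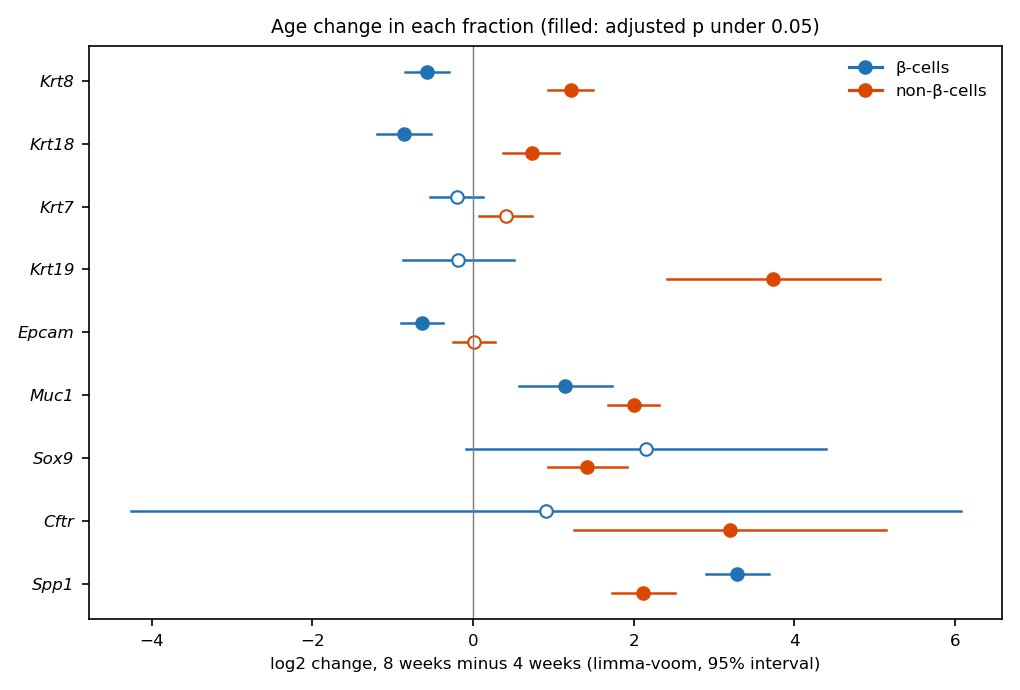
Log2 change from 4 to 8 weeks of each gene (x axis) in β-cells (blue) and non-β-cells (orange) from limma-voom, with 95% intervals and filled points where the adjusted p was under 0.05. Krt8 and Krt18 lie on opposite sides of 0 in the fractions, whereas Spp1 and Muc1 lie to the right in both.

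Compared at the same age, the fractions changed places for 3 of the 4 keratins. At 4 weeks Krt19, Krt7, Krt8 and Krt18 were higher in β-cells (4 of 8, background 24.9%) and Sox9, Spp1 and Muc1 were lower (3 of 8, background 23.7%). At 8 weeks only Krt7 was higher in β-cells (1 of 8, background 23.6%) and the other 7 were lower (background 25.6%). The median β minus non-β difference was 0.39 on the log2 scale at 4 weeks and -0.91 at 8 weeks. Each age comparison shares its samples with the fraction comparisons, so these are views of the same 12 samples.

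**Figure D2:**
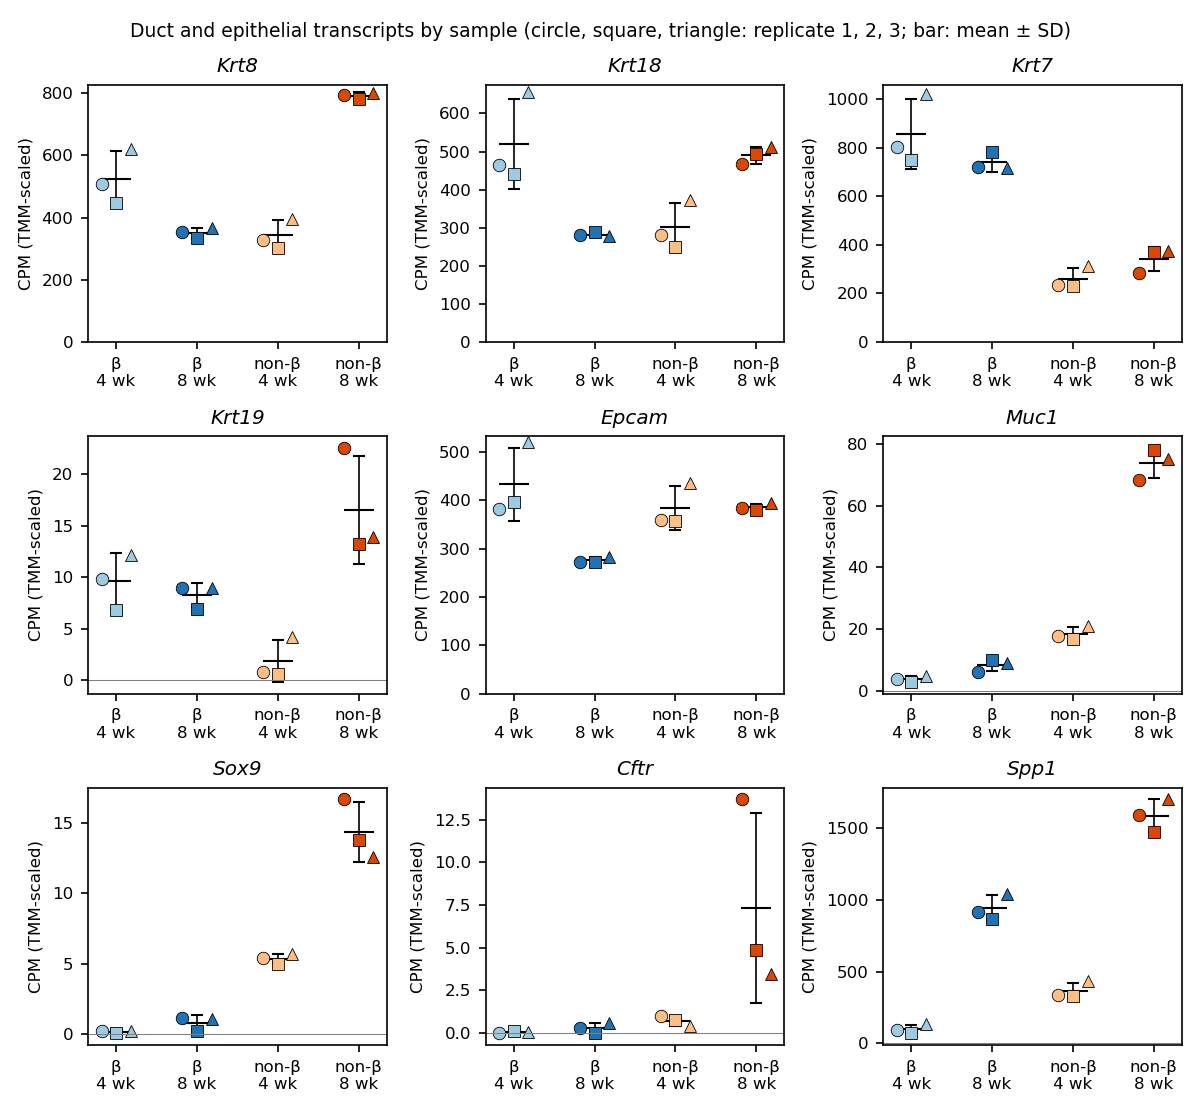
TMM-scaled CPM of each gene (y axis, linear from 0, a separate scale in each panel) in the 12 samples, with markers for replicates 1, 2 and 3 and bars for the group mean ± SD. Krt8 and Krt18 are lowest in β-cells at 8 weeks or non-β-cells at 4 weeks, and Sox9, Muc1 and Spp1 are highest in all 3 non-β-cell samples at 8 weeks.

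Krt8, on chromosome 15 (chr15:101996698-102004482, GRCm38, minus strand), encodes the type II keratin of simple epithelia. In β-cells its level in replicates 1, 2 and 3 was 507, 448 and 620 CPM at 4 weeks and 353, 334 and 366 CPM at 8 weeks. In non-β-cells it was 329, 303 and 396 CPM at 4 weeks and 793, 780 and 801 CPM at 8 weeks. No sample overlapped between ages in either fraction. Krt8 fell in β-cells by 0.57 on the log2 scale (SE 0.13, adjusted p = 0.00804) and rose in non-β-cells by 1.22 (SE 0.13, adjusted p = 2.61e-05), a 2.32-fold rise. The changes differed between fractions by -1.79 (SE 0.18, 95% interval -2.17 to -1.4, adjusted p = 8.96e-05). β-cells thus went from 1.53-fold above non-β-cells at 4 weeks (adjusted p = 0.00158) to 2.26-fold below them at 8 weeks (adjusted p = 7.05e-06). The 2 lowest groups, β-cells at 8 weeks (351 CPM) and non-β-cells at 4 weeks (342 CPM), had overlapping samples. A Krt8 pseudogene on chromosome 7 received at most 0.0394% of the Krt8 count in any sample, and the overlapping noncoding gene Gm36026 at most 0.786%.

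Krt18 (chr15:102028180-102032027, plus strand) encodes the type I partner of keratin 8, and it moved in the same directions. Its level in β-cells was 464, 441 and 655 CPM at 4 weeks and 281, 288 and 277 CPM at 8 weeks. The non-β-cells had 280, 250 and 373 CPM at 4 weeks and 467, 493 and 511 CPM at 8 weeks. The ages were again fully separate within each fraction. β-cells at 4 weeks overlapped with non-β-cells at 8 weeks, as did β-cells at 8 weeks with non-β-cells at 4 weeks. The β-cell change of Krt18 was -0.86 on the log2 scale, a fall (SE 0.16, adjusted p = 0.00268), and the non-β-cell change was 0.73, a rise (SE 0.16, adjusted p = 0.00658). The difference between these changes was -1.59 (SE 0.23, 95% interval -2.07 to -1.1, adjusted p = 0.00126). β-cells had 1.73-fold the non-β-cell level at 4 weeks (adjusted p = 0.00138) and were 1.74-fold lower at 8 weeks (adjusted p = 0.0011).

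The ratio of the partners was compared within samples, where scaling between libraries plays no part. The ratio of Krt8 to Krt18 counts within a sample ran from 0.946 to 1.09 in β-cells at 4 weeks, from 1.16 to 1.32 in β-cells at 8 weeks, from 1.06 to 1.21 in non-β-cells at 4 weeks and from 1.57 to 1.7 in non-β-cells at 8 weeks. Within each fraction the ratio was higher in every 8-week sample than in every 4-week sample. The mean log2 ratio differed between ages by 0.29 for the β-cells, beside 0.49 for the non-β-cells. An exact two-sided permutation test over 3 against 3 samples gave p = 0.1 for each, the smallest value it allows, and 0.123 after adjustment over 16 such comparisons of 4 gene pairs.

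**Figure D3:**
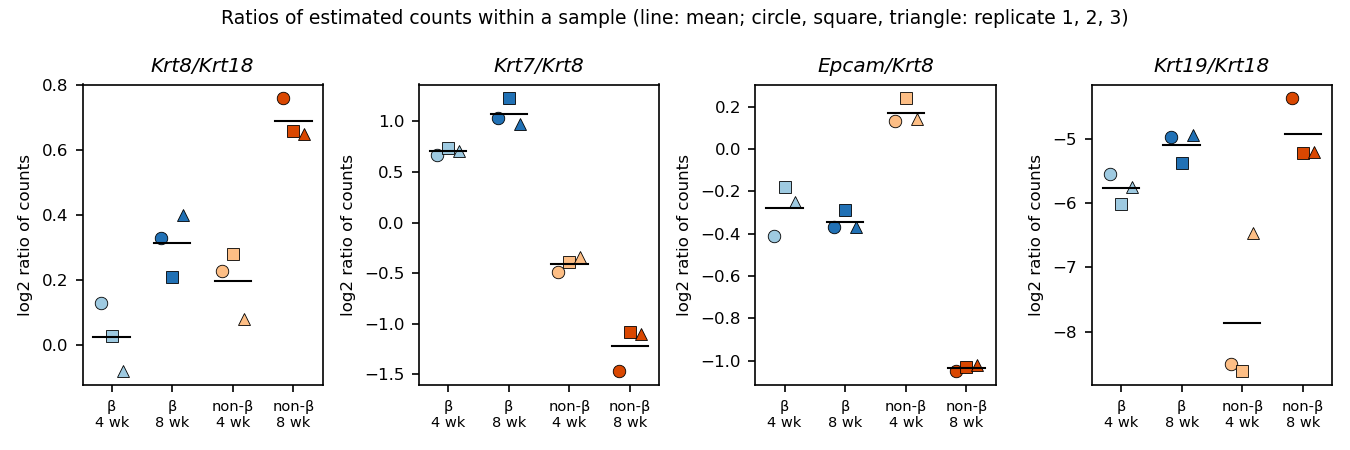
Log2 ratio of the estimated counts of paired genes within each of the 12 samples (y axis), with a line at the group mean. Krt8/Krt18 is highest and Krt7/Krt8 lowest in the 3 non-β-cell samples at 8 weeks, and every 8-week sample lies outside the 4-week samples of its fraction in both panels.

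Krt7 (chr15:101411043-101430313, plus strand) encodes a type II keratin of duct and other glandular epithelia. It was the only gene of the 9 that was higher in β-cells at both ages. Its level in β-cells was 804, 749 and 1020 CPM at 4 weeks and 720, 784 and 715 CPM at 8 weeks. Non-β-cell levels were 235, 231 and 313 CPM at 4 weeks and 286, 369 and 374 CPM at 8 weeks. The fractions did not overlap at either age, and the ages overlapped in both fractions. β-cells held 3.31-fold the non-β-cell level at 4 weeks (adjusted p = 1.37e-06) and 2.17-fold at 8 weeks (adjusted p = 5.28e-05). The age change was -0.2 in β-cells (SE 0.15, adjusted p = 0.399) and 0.41 in non-β-cells (SE 0.15, adjusted p = 0.0912), and their difference was -0.61 (adjusted p = 0.139). Without replicate 3 of the non-β-cells at 4 weeks, the non-β-cell rise passed the threshold (0.56, adjusted p = 0.0222), as did the difference between fractions (-0.76, adjusted p = 0.0427).

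Krt7 and Krt8, both type II keratins that pair with keratin 18, stood in opposite proportion in the fractions. The Krt7 to Krt8 count ratio was 1.59 to 1.67 in β-cells at 4 weeks and 1.95 to 2.35 at 8 weeks. In non-β-cells it was 0.714 to 0.792 at 4 weeks and 0.36 to 0.473 at 8 weeks. The ratio therefore lay further apart between fractions at 8 weeks, where the mean log2 difference was 2.29, than at 4 weeks, where it was 1.11. Each comparison reached the smallest exact permutation p of 0.1 (adjusted 0.123), and the change in that difference was not tested. The antisense gene Gm671, which overlaps Krt7, had at most 0.739% of its count.

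Krt19 (chr11:100140810-100148665, minus strand), the usual keratin marker of ducts, was scarce beside the other keratins. Its level in β-cells was 9.87, 6.82 and 12.2 CPM at 4 weeks and 8.93, 6.9 and 8.99 CPM at 8 weeks. The non-β-cell samples held 0.765, 0.636 and 4.24 CPM at 4 weeks and 22.6, 13.2 and 13.9 CPM at 8 weeks. Replicate 3 of the non-β-cells at 4 weeks was the highest of its group, yet it lay below every sample of the other groups. Krt19 rose in non-β-cells by 3.74 on the log2 scale (SE 0.61, adjusted p = 0.000882), and by 4.53 without that replicate (adjusted p = 0.00207). In β-cells the change was -0.18 (SE 0.32, adjusted p = 0.742, 95% interval -0.87 to 0.51). The difference between these changes was the largest of the 9 genes in size, -3.92 (SE 0.69, adjusted p = 0.00516), and -4.71 without the same replicate (adjusted p = 0.00659).

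At 4 weeks the β-cells exceeded the non-β-cells in Krt19 by 2.89 on the log2 scale (SE 0.62, adjusted p = 0.00209), or by 3.68 without replicate 3 of the non-β-cells (adjusted p = 0.00249). At 8 weeks it was lower in β-cells by a log2 difference of -1.03 (SE 0.3, adjusted p = 0.0121). That second call was lost without replicate 2 of the 8-week β-cells (-0.89, adjusted p = 0.0585), without replicate 1 of the 8-week non-β-cells (-0.74, adjusted p = 0.0773), and with edgeR (-1.01, adjusted p = 0.124) or DESeq2 (-1.03, adjusted p = 0.0925).

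Epcam (chr17:87635979-87651129, plus strand), which encodes the epithelial adhesion protein EpCAM, fell in β-cells and passed no age test in non-β-cells. Its level in β-cells was 383, 396 and 521 CPM at 4 weeks and 273, 273 and 283 CPM at 8 weeks. In non-β-cells it was 359, 357 and 437 CPM at 4 weeks and 384, 381 and 394 CPM at 8 weeks. β-cells at 8 weeks lay below every other sample, and the other 3 groups overlapped. The β-cell change was -0.63 on the log2 scale, a fall (SE 0.12, adjusted p = 0.00343), and the non-β-cell change was 0.01 (SE 0.12, 95% interval -0.25 to 0.28, adjusted p = 0.957). The fractions were not separated at 4 weeks (0.16, adjusted p = 0.283), whereas β-cells were 1.4-fold lower at 8 weeks (adjusted p = 0.00529). The difference between the age changes was -0.65 (SE 0.17, adjusted p = 0.0484). It no longer passed with edgeR (-0.66, adjusted p = 0.0506), or when any of 10 of the 12 samples was left out (adjusted p = 0.0581 to 0.124), the exceptions being the 4-week samples numbered 3.

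The Epcam to Krt8 count ratio in non-β-cells was 1.09 to 1.18 at 4 weeks and 0.484 to 0.492 at 8 weeks, without overlap (exact permutation p = 0.1, the smallest possible, adjusted 0.123, n = 3 against 3). In β-cells it was 0.755 to 0.882 at 4 weeks and 0.773 to 0.819 at 8 weeks, with overlapping samples (exact permutation p = 0.4, adjusted 0.427, n = 3 against 3).

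Muc1 (chr3:89229057-89233381, plus strand) encodes mucin 1, and it was a gene of the non-β fraction. Its level in β-cells was 3.77, 3.01 and 4.82 CPM at 4 weeks and 6.11, 10.1 and 9.07 CPM at 8 weeks. Levels in non-β-cells were 17.8, 16.7 and 20.9 CPM at 4 weeks and 68.3, 77.9 and 75.1 CPM at 8 weeks. The 4 groups did not overlap and stood in that order. Muc1 rose in non-β-cells by 2 on the log2 scale, a 4-fold rise (SE 0.15, adjusted p = 1.87e-06). It rose in β-cells by 1.15 (SE 0.27, adjusted p = 0.011), a call that was lost without replicate 2 of the 4-week β-cells (0.94, adjusted p = 0.0661). The difference between these changes did not pass (-0.85, 95% interval -1.51 to -0.19, adjusted p = 0.146), although DESeq2 called it (-0.89, adjusted p = 0.0355). The β-cell level was 20.9% ± 4.91 of the non-β-cell mean at 4 weeks and 11.4% ± 2.79 at 8 weeks.

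Sox9 (chr11:112782224-112787760, plus strand), the duct and progenitor transcription factor, was near the detection limit in β-cells. Its level there was 0.204, 0.0396 and 0.229 CPM at 4 weeks and 1.11, 0.226 and 1.08 CPM at 8 weeks. The non-β-cells had 5.43, 4.99 and 5.67 CPM at 4 weeks and 16.7, 13.8 and 12.6 CPM at 8 weeks. The non-β-cell groups were separate from each other and from all β-cell samples. Sox9 rose 2.68-fold in non-β-cells (log2 1.42, SE 0.23, adjusted p = 0.000776). The β-cell change was 2.16 with an SE of 1.04 and did not pass (adjusted p = 0.175), although edgeR (2.35, adjusted p = 0.0196) and DESeq2 (2.39, adjusted p = 0.00159) called it. It was 1.4 without replicate 2 of the 4-week β-cells (adjusted p = 0.421) and 2.95 without replicate 2 of the 8-week β-cells (adjusted p = 0.0504). The β minus non-β difference was -5.22 at 4 weeks (adjusted p = 0.000546), or -4.48 without replicate 2 of the β-cells (adjusted p = 0.00351). At 8 weeks it was -4.48 (adjusted p = 1.21e-05), or -3.69 without replicate 2 of the β-cells (adjusted p = 4.16e-05).

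Cftr (chr6:18170687-18322768, plus strand), the duct chloride channel gene, rested on few counts outside the non-β-cells at 8 weeks. The β-cell replicates 1, 2 and 3 had 0, 3 and 2 counts at 4 weeks, then 6, 0 and 15 at 8 weeks. The non-β-cell replicates had 26, 16 and 8 counts at 4 weeks, then 317, 65 and 67 at 8 weeks. A count of 0 allows a level of up to 0.153 CPM in the first of these samples and 0.113 CPM in the β-cell sample at 8 weeks, by counting error only. In CPM, the non-β-cells went from 0.995, 0.783 and 0.394 at 4 weeks to 13.7, 4.86 and 3.44 at 8 weeks, without overlap. Replicate 1 at 8 weeks alone stood well above the others.

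Cftr rose in non-β-cells by 3.2 on the log2 scale (SE 0.9, 95% interval 1.26 to 5.14, adjusted p = 0.0264), having passed the filter only through their 8-week samples. Without replicate 1 of the 8-week non-β-cells the change was 2.45 (adjusted p = 0.0257). The call was lost without replicate 1, 2 or 3 of the 4-week non-β-cells, with adjusted p-values of 0.086, 0.0726 and 0.0681. At 8 weeks Cftr was lower in β-cells by a log2 difference of -5.52 (SE 1.49, adjusted p = 0.00795), a fitted value that ranged from -3.9 without replicate 2 of the β-cells (adjusted p = 0.0222) to -6.57 without replicate 3 (adjusted p = 0.0313). At 4 weeks the difference was -3.22 (SE 2.07, adjusted p = 0.215). edgeR (-3.21, adjusted p = 0.0292) and DESeq2 (-3.32, adjusted p = 0.00467) called that one. The age change in β-cells could not be resolved at this depth (0.91, 95% interval -4.26 to 6.07, adjusted p = 0.83).

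Spp1 (chr5:104435118-104441050, plus strand), which encodes osteopontin, had the largest age change of the 9 genes in β-cells and rose in both fractions. Its level in β-cells was 91.3, 73.8 and 133 CPM at 4 weeks and 918, 866 and 1040 CPM at 8 weeks. The non-β-cell levels were 337, 327 and 432 CPM at 4 weeks and 1590, 1470 and 1700 CPM at 8 weeks. None of the 4 groups overlapped, and β-cells at 8 weeks exceeded non-β-cells at 4 weeks. The rise was 9.77-fold in β-cells (log2 3.29, SE 0.18, adjusted p = 1.77e-07) and 4.35-fold in non-β-cells (log2 2.12, SE 0.18, adjusted p = 5.24e-06). It was larger in β-cells by 1.17 (SE 0.26, 95% interval 0.61 to 1.72, adjusted p = 0.0185). That difference did not pass without replicate 1 of the 4-week β-cells (1.12, adjusted p = 0.0602), replicate 1 or 3 of the 8-week β-cells (1.17 and 1.1, adjusted p = 0.0508 and 0.0597) or replicate 2 of the 8-week non-β-cells (1.1, adjusted p = 0.0525). β-cells were lower than non-β-cells by a log2 difference of -1.92 at 4 weeks (adjusted p = 2.53e-06) and -0.75 at 8 weeks (adjusted p = 0.00394). Gm42793, an unclassified gene on the same strand, overlaps Spp1, and no count of it was used here.

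The 9 genes covered a wide range of levels once divided by transcript length. In β-cells at 4 weeks Krt7 and Krt18 stood highest, both at 362 CPM per kilobase, followed by Epcam at 327 and Krt8 at 268. Spp1 stood at 70.4 CPM per kilobase, Krt19 at 6.11, Muc1 at 1.73, Sox9 at 0.0382 and Cftr at 0.0162. In non-β-cells at 8 weeks Spp1 led at 1120 CPM per kilobase, ahead of Krt8 at 404, Krt18 at 341 and Epcam at 291. Krt7 followed at 145 CPM per kilobase, then Muc1 at 32.9, Krt19 at 10.5, Sox9 at 3.48 and Cftr at 1.69. So Krt7, Krt8, Krt18 and Epcam stood at 145 CPM per kilobase or more in both groups named. The more duct-restricted Sox9 and Cftr were the lowest in both. The sorted fractions are mixtures, so these levels cannot be assigned to endocrine cells alone.

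The β-cell level as a share of the non-β-cell mean differed widely between genes. At 4 weeks it was 2.94% ± 1.92 for Sox9, 9.7% ± 8.61 for Cftr and 27.1% ± 8.27 for Spp1 (SD over the 3 β-cell samples). At 8 weeks it was 5.61% ± 3.5 for Sox9, 3.99% ± 4.1 for Cftr and 59.6% ± 5.76 for Spp1. The share for glucagon, a hormone of non-β-cells, was 6.36% and 1.62% at these ages.

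Of 21 other duct genes, 19 were tested, and 4 of them (Mmp7, Sctr, Car2 and Wfdc2) passed the filter only through the 8-week non-β-cells, like Cftr. Among the other 15, 9 rose and none fell in non-β-cells (median log2 change 0.79), against 10.2% and 5.15% of the 14358 genes filtered in the same way. In β-cells none rose and 3 fell (median 0.15), against 9.05% and 9.99%. The largest fitted changes in non-β-cells were those of Mmp7, a secreted protease of duct epithelium (log2 8.95, adjusted p = 0.000108), Sctr, the secretin receptor (6.56, adjusted p = 0.00415), and Anxa3, an annexin (4.01, adjusted p = 0.000999). Mmp7 went from a mean of 0.0493 CPM ± 0.0854 to 21.2 ± 2.84 and Sctr from 0.0128 ± 0.0221 to 3.33 ± 2.12 (SD, n = 3), so their fitted values depend on the small constant added to low counts, and the filter could admit them only if they were high in this group. In β-cells Mmp7 rose too (log2 4.05, adjusted p = 0.035), to a mean of 0.579 CPM, whereas Lgals3, encoding galectin-3, fell (-3.12, adjusted p = 5.39e-05) and Anxa2 fell (-1.39, adjusted p = 0.00144).

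Anxa2, which encodes a membrane-binding annexin, repeated the opposed pattern of Krt8 and Krt18. Its mean went from 35.4 CPM ± 6.05 to 13.3 ± 1.1 in β-cells and from 25.7 ± 10.6 to 114 ± 7.76 in non-β-cells. The interaction was -3.64 for Anxa2 (adjusted p = 3.1e-05), -4.06 for Anxa3 (adjusted p = 0.0213) and -3.06 for Lgals3 (adjusted p = 0.00283). Of the same 15 genes, 5 had a lower age change in β-cells and none a higher one, against 3.52% and 1.94%. Between fractions, 3 were higher and 7 lower in β-cells at 4 weeks, against 26.4% and 24.2%, and 1 was higher and 12 lower at 8 weeks, against 25.1% and 24%. Among all 19 tested duct genes, the most different at 4 weeks were Wfdc2 (-4.25, adjusted p = 0.0147), the water channel gene Aqp1 (-4.04, adjusted p = 0.00545) and Tspan8 (-3.97, adjusted p = 6.82e-08). At 8 weeks they were Mmp7 (-5.31, adjusted p = 2.39e-06), the carbonic anhydrase gene Car2 (-5.3, adjusted p = 0.000306) and Aqp1 (-5.16, adjusted p = 0.000102). Wfdc2, Mmp7 and Car2 are outside the 15, since they passed the filter only through the 8-week non-β-cells. The filter therefore fixed the direction of the 8-week differences of Mmp7 and Car2. The duct gene Cd24a (0.01, adjusted p = 0.973) did not pass the age test in non-β-cells.

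**Figure D4:**
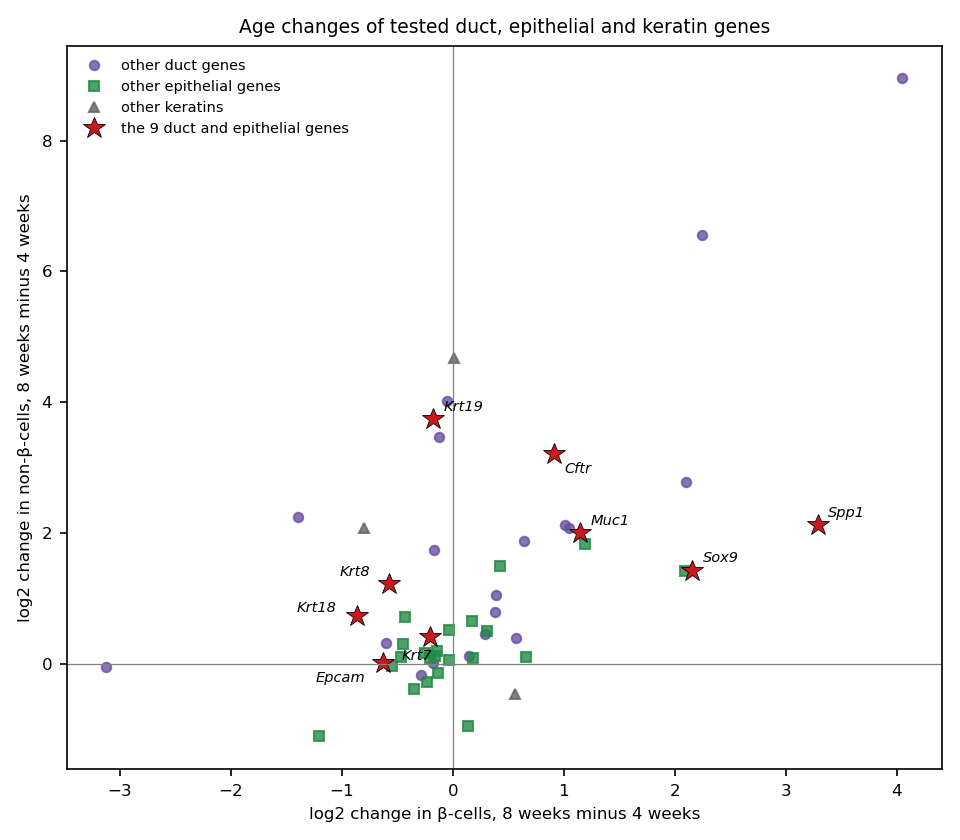
Log2 change from 4 to 8 weeks in β-cells (x axis) against that in non-β-cells (y axis) for the 9 genes (stars) and the tested genes of the other duct, epithelial and keratin lists. Duct genes reach 8.95 (Mmp7) on the y axis, while most of the other epithelial genes lie near 0 on both axes. Mmp7 passed the filter only through the 8-week non-β-cells, so it had to be high there. The 15 duct genes that did not rely on that group had a median of 0.79 on the y axis.

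Of 22 general epithelial genes, all tested, 7 rose and 2 fell in non-β-cells (median 0.11), which is 31.8% and 9.09% beside 11.6% and 4.8% of all tested genes. In β-cells 3 rose and 5 fell (median -0.13), or 13.6% and 22.7% beside 8.59% and 9.35%. The epithelial transcription factor genes Elf3 and Ehf rose in both fractions, β-cells first: Elf3 by 1.19 (adjusted p = 0.000105) and 1.83 (adjusted p = 2.2e-06), and Ehf by 2.09 (adjusted p = 8.83e-06) and 1.42 (adjusted p = 6.7e-07). Grhl2, another of them, rose in non-β-cells (1.5, adjusted p = 0.0248). The protease gene Prss8 fell in both, with a change of -1.2 for the β-cells (adjusted p = 0.00538) and of -1.11 for the non-β-cells (adjusted p = 0.0113). The age change differed between fractions for 4 genes, lower in β-cells for 3 (13.6%, background 3.33%) and higher for 1 (4.55%, background 1.8%), among them the tight junction gene Cldn4 (-1.14, adjusted p = 0.00145), the junction gene Jup (-0.75, adjusted p = 0.00476) and the splicing factor gene Esrp1 (1.08, adjusted p = 0.000298). Between fractions, 7 were higher and 5 lower in β-cells at 4 weeks, shares of 31.8% and 22.7% that lie near the 24.9% and 23.7% of all tested genes. The largest differences were those of Ehf (-3.57, adjusted p = 6.43e-09), the desmosome gene Dsp (1.78, adjusted p = 2.3e-05) and the E-cadherin gene Cdh1 (1.03, adjusted p = 1.04e-05). At 8 weeks 6 were higher and 8 lower, shares of 27.3% and 36.4% beside 23.6% and 25.6%, with the largest differences for Ehf (-2.9, adjusted p = 4.66e-10), Grhl2 (-1.77, adjusted p = 0.00408) and Esrp1 (1.5, adjusted p = 3.77e-08).

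Of 10 other keratin genes, 3 were tested, of which Krt17 passed the filter only through the 8-week non-β-cells. Krt17 rose in non-β-cells (log2 4.68, adjusted p = 0.000178), from a mean of 0.94 CPM ± 0.344 to 23.5 ± 7.15, and at 8 weeks it was lower in β-cells (-6.81, adjusted p = 0.000205). Krt80 was opposed between the fractions, since it fell in β-cells (-0.8, adjusted p = 0.0144) and rose in non-β-cells (2.07, adjusted p = 0.00441), with an interaction of -2.87 (adjusted p = 0.00332). It was higher in β-cells at both ages (4, adjusted p = 3.66e-06, and 1.13, adjusted p = 0.00273). The stratified-epithelium keratin genes Krt4 and Krt13 were listed at 0 in every group.

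Markers of other cell types moved with age as well, in the samples where these genes rose. All 7 endothelial and all 7 mesenchymal markers rose in non-β-cells, against 11.6% of all tested genes. Of these, Tek, an endothelial one, passed the filter only through the 8-week non-β-cells, so it had to be high there. Without Tek, 6 of 6 endothelial and 7 of 7 mesenchymal markers rose, against 10.2% of the 14358 genes filtered in the same way. The summed endothelial level in non-β-cells went from 39.9 to 82.6 CPM at 4 weeks to 354 to 999 CPM at 8 weeks, and the mesenchymal level from 79.9 to 251 CPM to 545 to 841 CPM. Replicate 1 of the 8-week non-β-cells was the highest sample for Cftr, Krt19 and Sox9. In its group it was the lowest for Muc1 (68.3 CPM), Krt18 (467 CPM) and Krt7 (286 CPM). For Krt8, Spp1 and Epcam it lay between the other samples of its group. The same sample was the highest for the endothelial list (999 CPM) and, in its group, for the acinar list (877 CPM). For the mesenchymal list it was the lowest of its group (545 CPM). Acinar markers, of digestive enzyme cells, had a non-β-cell sum of 83.5 to 168 CPM at 4 weeks and of 277 to 877 CPM at 8 weeks. In this fraction 4 of 13 tested acinar markers rose and 1 fell, against 11.6% and 4.8% of all tested genes. Their part in the rise of the duct genes was not tested.

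In β-cells the endothelial sum was 3.01 to 10.7 CPM at 4 weeks and 7.59 to 8.54 CPM at 8 weeks, and the mesenchymal sum 3.25 to 12.2 and 19 to 42.6 CPM, with none of these 14 markers passing the age test. The acinar sum in β-cells went from 134 to 250 CPM at 4 weeks to 512 to 1050 CPM at 8 weeks. There 8 of 13 tested acinar markers rose and none fell, against 8.59% and 9.35% of all tested genes. Leukocyte markers summed to 59.1 to 65.6 CPM in β-cells at 4 weeks and 82.5 to 87.8 CPM at 8 weeks, and to 40.7 to 62.1 and 87.6 to 112 CPM in non-β-cells. Only 4 of the 12 leukocyte markers were tested, and 2 of them rose in each fraction (Cd68 and Cd14). The other 2 tested were C1qa, with means of 26.5 and 29.7 CPM in non-β-cells and 7.86 and 4.59 CPM in β-cells at 4 and 8 weeks, and Cd79a. Cd68 averaged 48.8 and 69.6 CPM in β-cells and 9.15 and 16.5 CPM in non-β-cells, and Cd14 averaged 1.5 and 6.95 CPM in β-cells and 12.1 and 47.9 CPM in non-β-cells. The 8 markers that were not tested, Csf1r, Adgre1, Lyz2 and C1qb among them, had means of at most 0.573 CPM in every group. Spp1 rose in β-cells between the ages at which the acinar, Cd68 and Cd14 levels also rose, while mean C1qa was lower (adjusted p = 0.145). Among the 8-week β-cells the acinar sum was highest in replicate 1 (1050 CPM) and Spp1 was highest in replicate 3 (1040 CPM). The part of other cell types in the Spp1 rise was not tested.

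**Figure D5:**
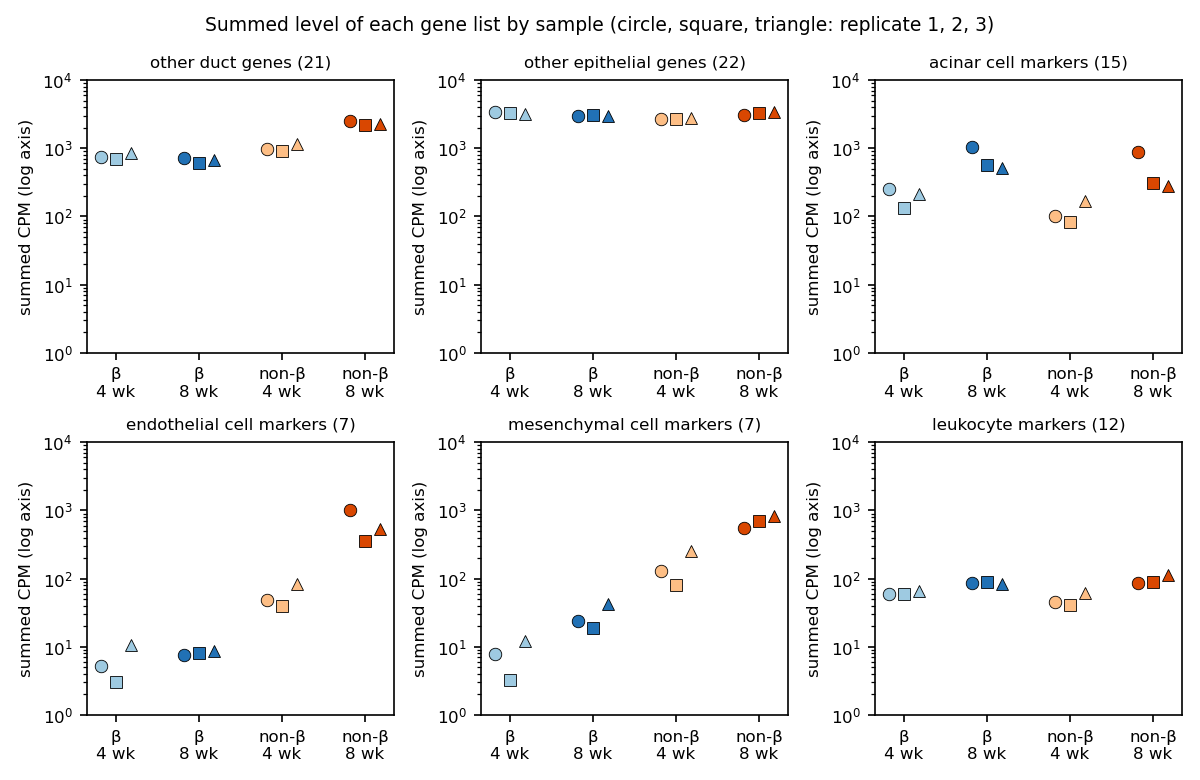
Summed TMM-scaled CPM of 6 gene lists in each of the 12 samples (y axis, log scale). The duct, endothelial and mesenchymal lists are highest in the 3 non-β-cell samples at 8 weeks, whereas the other epithelial genes stay between 2660 and 3440 CPM in all groups.

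The genes most like each of the 9 in their levels were ranked by Pearson r over the 12 samples, among 10171 well-expressed genes. The points share their groups and their libraries, so r is a description. Spp1 was most like Ldha, a lactate dehydrogenase gene (r = 0.993), Uba7 (0.985) and Tsc22d1 (0.984). Krt7 was most like Chmp4b (r = 0.992), Pea15a (0.99) and Tagln2 (0.99). Krt8 was most like Btg1 (r = 0.969), Cldn4 (0.961) and Bcl10 (0.954), and Krt18 most like Tubb5 (0.913), Bcl10 (0.902) and Rras (0.9). Muc1 was most like the collagen genes Col1a2 (r = 0.986) and Col6a3 (0.984) and the tubulin gene Tubb6 (0.984). Sox9 was most like Hbegf (r = 0.985), Higd1a (0.982) and the collagen gene Col4a2 (0.982), and Cftr most like Itgb1 (0.963), Dnajb4 (0.96) and Sox4 (0.96). The likeness was lower for Epcam, with 1810032O08Rik (r = 0.949), Cfap20 (0.943) and Mepce (0.934), and for Krt19, with Tpm3-rs7 (0.927), Hspa1a (0.921) and Aldh2 (0.914).

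Among themselves the 9 genes formed no uniform block. Over the 12 samples r between log2 levels was 0.87 for Krt8 with Krt18, 0.93 for Sox9 with Muc1, 0.9 for Sox9 with Cftr and 0.89 for Cftr with Muc1. It was -0.86 for Krt7 with Sox9 and -0.73 for Krt7 with Muc1. Krt19 with Sox9, both textbook duct markers, had an r of -0.08. These values again rest on 4 groups of 3 samples and carry no test.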

How the data were processed

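RNA of 12 sorted islet cell samples was sequenced from strand-specific, low-input total RNA libraries. Per the study's methods and processing notes, reads were filtered with fastp, assigned to mouse transcripts (Ensembl 98, GRCm38) with kallisto and summed to genes. The authors deposited estimated counts per gene, unscaled, and tool versions are not given in the sources used here. From 14% to 19.3% of a sample's values were not whole, and all were rounded. Reads shared between similar genes are divided by estimation, so small counts of overlapping genes are uncertain.

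Symbols came from a name table (51916 of 52962 identifiers matched) and coordinates from GENCODE M21 (GRCm38, counted from 1). Genes with CPM above 1 in at least 3 samples were scaled by TMM (edgeR 4.0.16) and fitted by limma-voom (R 4.3.3, limma 3.58.1), as in the study's methods, in a model of all 12 samples with 4 group means and no covariates. Tests were two-sided with Benjamini-Hochberg adjustment over 15598 genes and a threshold of 0.05. log2 CPM for correlations used a prior count of 2. A gene was taken to pass the filter through a single group when fewer than 3 samples outside that group exceeded the minimum, a check made after the data had been seen. Levels per kilobase used the median length of a gene's coding transcripts. Counting floors are 3 counts.

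The 9 genes and all lists were chosen with earlier results of these data known. From the other duct, epithelial and keratin lists, the 3 largest changes past the threshold in each comparison are named. Cd24a, Clu, Krt4, Krt13 and the markers of other cell types named beyond that rule were chosen after their values were seen. Values of 1 listed gene and matches to 1 motif are not reported here. For likeness, the 3 genes with the highest r and a mean log2 CPM of at least 3 are named.

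Equal replicate numbers were not taken as pairs. The correlation of deviations from group means between equally numbered samples was 0.08 to 0.31 for β- with non-β-cells at 4 weeks and 0.01 to 0.05 at 8 weeks, and -0.01 to 0.03 and 0 to 0.12 between ages. For unequally numbered samples it was -0.23 to 0.11 for β- with non-β-cells at 4 weeks and -0.03 to 0.01 at 8 weeks. Between ages the unequal range was -0.04 to 0.02 in β-cells and -0.14 to 0.05 in non-β-cells. The highest value, 0.31, was that of the 4-week samples numbered 3. The labels do not say whether equal numbers mark shared islets, and this was not tested. Replicates of a group differed by more than counting noise (chi-square per degree of freedom 8.15 to 101). Alternatives were DESeq2 1.42.0 or edgeR (quasi-likelihood) in place of limma-voom, scaling by DESeq2 size factors or total counts, no filter or 10 counts in 6 samples, sample quality weights, only the groups compared, removal of hormone and mitochondrial genes, a replicate block, and samples left out. On simulated counts, the model recovered 64.4% of genes changed by a log2 of 1 in the β-cell age comparison (15174 genes tested) and 18.8% in the interaction (15171 genes tested). The simulation drew each gene around its mean over all 12 samples, without the real differences between groups. These shares therefore need not hold for the data.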

Additional observations from a re-analysis of the deposited data

Results flagged for a closer look

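For 5 of the 8 genes other than Cftr the change from 4 to 8 weeks differed between the fractions by a direct test, the interaction in limma-voom. It was lower in β-cells for 4 and higher for 1, against 3.33% and 1.8% of all tested genes. The difference, β-cells minus non-β-cells on the log2 scale, was -3.92 for Krt19, -1.79 for Krt8, -1.59 for Krt18, -0.65 for Epcam and 1.17 for Spp1. Krt8 and Krt18 fell in β-cells and rose in non-β-cells. Krt19 rose in non-β-cells and Epcam fell in β-cells, with the other fraction short of the threshold in each case. Spp1 rose in both fractions, more in β-cells. The calls for Krt19, Krt8 and Krt18 held under every alternative that was run, and those for Spp1 and Epcam did not.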

How the results depend on the processing

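Of 807 values of the 9 genes under alternatives, 760 kept direction and side of the threshold, 25 fell below it, 14 passed it and 8 changed sign. All 8 sign changes were of changes near 0 or of few counts. They were Krt19 in β-cells with age (0.02 without replicate 3 of the 4-week β-cells, and 0.02 without both 4-week samples numbered 3), Cftr in β-cells (-0.18 without replicate 3 at 8 weeks), the Sox9 interaction (-0.01 without replicate 2 of the 4-week β-cells) and Epcam in non-β-cells (-0.03 with total counts, -0.03 with only the groups compared, -0.06 and -0.07 without replicate 1 or 2 at 4 weeks). With each sample left out in turn these values ran from -0.46 to 0.02 for Krt19, from -0.18 to 2.52 for Cftr, from -0.01 to 1.52 for Sox9 and from -0.07 to 0.12 for Epcam. The same procedure gave 3 to 6 genes called in the interaction (5 with all samples). The count was 3 without replicate 1 of the 4-week β-cells, replicate 1 or 3 of the 8-week β-cells or replicate 2 of the 8-week non-β-cells. The replicate block gave 7, since Krt7 (-0.61, adjusted p = 0.00323) and Muc1 (-0.86, adjusted p = 0.039) passed. Over all genes it called 2080 in the interaction against 800. Its Cftr difference at 8 weeks was -4.66 (adjusted p = 0.000329). Equal numbers were not shown to mark shared material. Sample quality weights also called the Krt7 rise in non-β-cells (0.58, adjusted p = 0.00067). In the interaction, all-gene counts were 2384 with these weights, 1562 with DESeq2, 1468 without the 4-week samples numbered 3, and as few as 455 without replicate 2 of the 8-week β-cells. For the β-cell age change, 5382 genes were called with weights and 1695 without replicate 3 at 8 weeks, against 2799. Without a filter the median of all genes moved to 0.21 for age in non-β-cells, -0.23 for β minus non-β at 8 weeks and -0.11 for the interaction. The causes were not tested. Cftr outside the 8-week non-β-cells and Sox9 in β-cells rest on few counts.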
